A study of Saccharomyces cerevisiae with 13 samples.

Results

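The ribosome biogenesis genes examined here were 51 listed genes for nucleolar factors that assemble the ribosomal subunits, all outside chromosome 12. They were found by their systematic names, and 50 of the 51 were among the 6326 genes of the deposited tables. PWP2 (YCR057C), a UtpB subunit, was not analysed here. Ribosome assembly starts in the nucleolus, where RNA polymerase I makes the precursor of the large rRNAs. Small nucleolar RNPs then modify it, the small subunit processome (with the UtpA, UtpB and Mpp10 complexes) folds and cleaves it, and helicases, GTPases and large subunit factors such as Nop7, Erb1 and Ytm1 mature the large subunit. In growing yeast these genes are highly transcribed and rise and fall together with growth, and many of their promoters carry the PAC and RRPE motifs, which are bound by Dot6 and Tod6 and by Stb3.

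All 13 libraries came from asynchronous *rtt109Δ* cells, which lack the acetyltransferase of histone H3 lysine 56 and carry the hENT1 transporter and thymidine kinase so that they can take up EdU. After a 5 min pulse of EdU and 5 min in thymidine, nascent chromatin was isolated by NChAP (MNase-digested chromatin whose EdU-labelled DNA is coupled to biotin and pulled down) at 0, 2, 4, 6, 8 and 15 min in replicate 1 and at 2, 4, 6, 8, 15 and 25 min in replicate 2, and 1 library was made from total chromatin (bulk). The titles of these 12 libraries call them input DNA, while their descriptions give the pulldown of nascent DNA. They are taken as nascent here, and if the titles were right the values would not be of nascent chromatin. No strain with RTT109 was part of the comparisons, so no value below measures an effect of the deletion. The labels name a chd1 deletion in 1 field and an rtt109 deletion in another. The gene body signal of RTT109 (YLL002W) was 0.0230 to 0.0675 in replicate 1 and 0.0632 in bulk, where the median gene of its chromosome stood at 1.22 to 1.27, and CHD1 (YER164W) stood at 0.789 to 1.15 in all libraries. In replicate 2 all 547 genes of chromosome 12 were listed at 0 in the gene body, so RTT109 could not be checked there.

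Values are read coverage divided by the library mean, in 20 bp bins counted from the TSS (the transcription start site), and the depth was 2.57 to 78.1 reads per bin. The libraries of replicate 1 at 0 min (2.57 reads per bin) and 4 min (4.94) were shallow. The start sites of chromosome 10 were displaced against the signal: the nucleosome-depleted trough of its genes lay at -390 bp on the Watson strand and at 250 bp on the Crick strand in bulk, against -150 to -30 bp on the other chromosomes. UTP10 (YJL109C), UTP18 (YJL069C) and MPP10 (YJR002W) lie there, and their own troughs in bulk were at 190, 250 and -410 bp. Their promoter and +1 values therefore do not measure those regions, and medians are also given for the 47 genes on other chromosomes. Of these 47, 46 had their own trough between -190 and -10 bp (median -110 bp), and the exception was UTP22 (YGR090W), at -290 bp.

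The PAC and RRPE letters are shown first because they were shared by nearly all of these genes and were not used to choose them. In the 300 bp upstream of the start codon (RefSeq, assembly R64), PAC (GATGAG, either strand) was present in 47 of 51 genes (92.2%) and in 19.1% of all 6007 genes. RRPE (AAAATTTT, which reads the same on both strands) was present in 45 (88.2%), against 9.42% of all genes. Both were present in 42 (82.4%) and in 4.44% of all genes. The longer forms GCGATGAG and AAAAATTTT, which contain the shorter ones, stood together in 24 genes (47.1%), against 1.71% of all genes. The motifs were not particular to this list. Of 80 other ribosome biogenesis genes (78 of them in the deposited tables) 87.5% had PAC, 71.2% RRPE, 62.5% both and 25% both longer forms. In the closest pair of the 42 genes the RRPE lay farther from the start codon than the PAC in 35, and in 39 the pair was separated by 30 bp or less. The stretches below hold the closest pair of 12 genes from the different complexes, 5′ to 3′ on the coding strand, with the letters of PAC and RRPE in capitals.
NOP58 (YOR310C, chrXV:898456-898495, minus strand): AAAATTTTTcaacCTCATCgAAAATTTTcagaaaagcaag
GAR1 (YHR089C, chrVIII:283406-283447, minus strand): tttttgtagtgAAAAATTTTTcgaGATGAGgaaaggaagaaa
NAN1 (YPL126W, chrXVI:310052-310106, plus strand): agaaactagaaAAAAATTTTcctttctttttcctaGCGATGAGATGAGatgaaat
IMP4 (YNL075W, chrXIV:485448-485498, plus strand): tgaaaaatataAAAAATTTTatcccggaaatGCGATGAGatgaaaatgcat
KRR1 (YCL059C, chrIII:23450-23492, minus strand): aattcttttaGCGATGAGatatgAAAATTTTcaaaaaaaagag
RRP12 (YPL012W, chrXVI:529523-529571, plus strand): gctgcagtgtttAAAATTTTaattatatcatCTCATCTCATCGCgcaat
DBP3 (YGL078C, chrVII:361985-362026, minus strand): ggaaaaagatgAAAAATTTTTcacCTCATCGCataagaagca
NOP7 (YGR103W, chrVII:695264-695305, plus strand): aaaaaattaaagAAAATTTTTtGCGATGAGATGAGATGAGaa
YTM1 (YOR272W, chrXV:832643-832688, plus strand): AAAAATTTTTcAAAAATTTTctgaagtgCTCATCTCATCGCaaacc
NOG2 (YNR053C, chrXIV:723257-723305, minus strand): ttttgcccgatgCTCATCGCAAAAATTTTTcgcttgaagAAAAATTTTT
NMD3 (YHR170W, chrVIII:443657-443700, plus strand): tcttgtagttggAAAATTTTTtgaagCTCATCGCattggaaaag
SDA1 (YGR245C, chrVII:982201-982241, minus strand): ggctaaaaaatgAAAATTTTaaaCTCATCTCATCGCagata
In NOG2 the longer forms abut without a gap, with the PAC upstream, and in NMD3 and DBP3 the RRPE is upstream and the PAC reads on the opposite strand. A match is a run of letters and does not show that a factor was bound. The positions were not placed on the coverage profiles, since the genome build of the deposited tables is not given in the sources used here.

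The promoters of the ribosome biogenesis genes were more depleted than those of other genes, in bulk and in nascent chromatin from the shortest chase on. In the mean bulk profile the signal fell to 0.181 at -90 bp, against 0.544 for the 5729 other genes outside chromosome 12, and the upstream nucleosome at -290 bp reached 1.58, against a highest value of 1.15 for other genes. In nascent chromatin of 2 to 15 min the lowest point of the mean profile was 0.152 to 0.265 for the ribosome biogenesis genes and 0.477 to 0.602 for the others. In the shallow library of 0 min it was 0.1555 and 0.5051. At 25 min the order was turned, with 1.26 and 1.07. These comparisons with other genes are descriptions without a test.

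**Figure D1:**
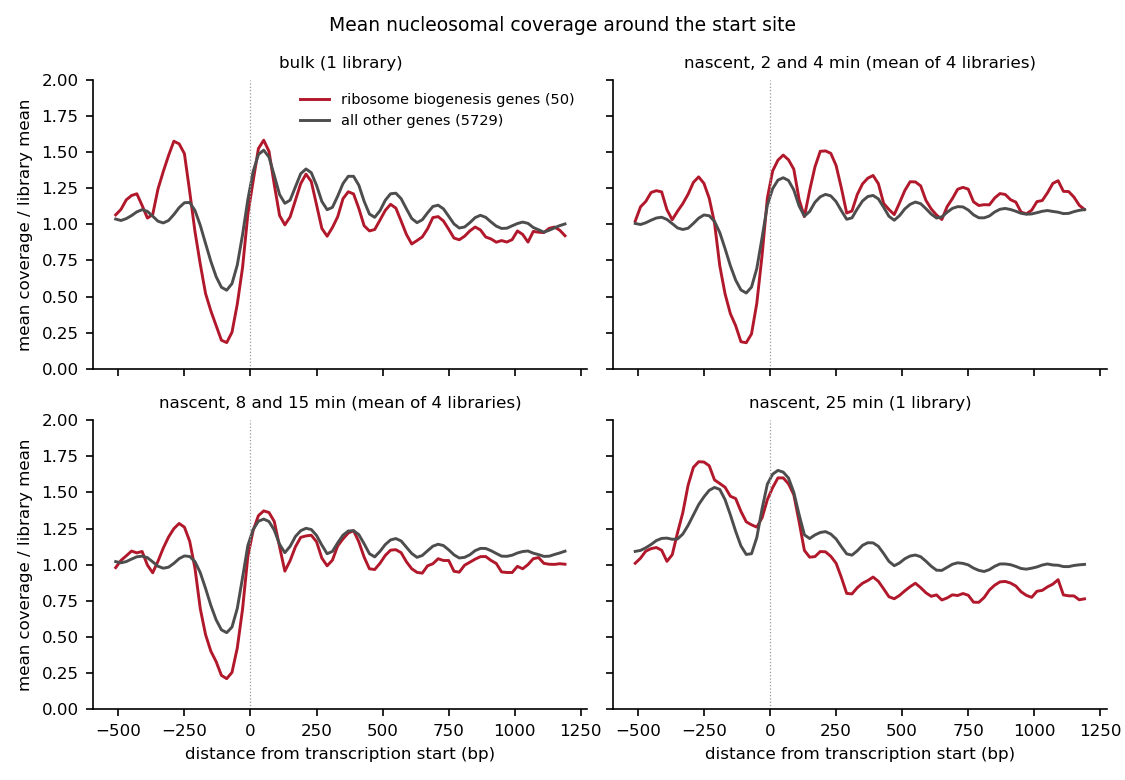
Mean coverage over the library mean (vertical axis) against the distance from the TSS in bp (horizontal axis) for the 50 ribosome biogenesis genes (red) and 5729 other genes (grey) in bulk, in early and late nascent libraries and at 25 min. The red trough is deeper in the panels of bulk and of 2 to 15 min, the red gene body lies above the grey one early and below it late, and at 25 min the trough is filled.

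Promoter occupancy was next taken per gene as the signal from -150 to 0 bp over that of the gene body (0 to 1000 bp). Its median over the ribosome biogenesis genes was 0.367 in bulk (quartiles 0.193 and 0.505), against 0.569 for other genes. In replicate 1 the median was 0.192 at 0 min, 0.341 at 2, 0.282 at 4, 0.313 at 6, 0.310 at 8 and 0.355 at 15 min. The medians of replicate 2 were 0.361 at 2, 0.324 at 4, 0.325 at 6, 0.304 at 8, 0.424 at 15 and 1.39 at 25 min. Other genes stood at 0.529 to 0.609 from 2 to 15 min, so the medians of the ribosome biogenesis genes were below those of other genes in each of these 10 libraries. For the 47 genes outside chromosome 10 the median was 0.349 in bulk, 0.158 at 0 min and 0.275 to 0.414 from 2 to 15 min, against 0.548, 0.515 and 0.510 to 0.587 for other genes. Promoter medians below those of other genes were also found in other sets. In the 1221 genes of the top quartile by RNA polymerase II occupancy, the ribosome biogenesis genes examined here left out, the median was 0.465 in bulk. It was 0.425 to 0.507 from 2 to 15 min. The 78 other ribosome biogenesis genes stood at 0.417 in bulk and 0.357 to 0.482 from 2 to 15 min. Both sets lay above the ribosome biogenesis genes examined here in bulk and in each library of 2 to 15 min. The proteasome and ribosomal protein genes came closer. The median was 0.362 in bulk and 0.246 to 0.363 from 2 to 15 min in the 33 proteasome genes, and 0.433 and 0.244 to 0.405 in the 118 ribosomal protein genes.

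The genes differed widely among themselves. The lowest ratios in bulk were those of RPF2 (YKR081C, a Brix protein that brings the 5S RNP to the large subunit), at 0.00552, NSR1 (YGR159C, nucleolin), at 0.0642, and the helicase DBP3 (YGL078C), at 0.0679. RPF2 was listed at 0 over the promoter in 10 of the 12 nascent libraries, and reached 0.0430 at 15 min and 1.65 at 25 min of replicate 2. Its +1 over body (0.287) and body level (0.439) in bulk were low too. On its chromosome 11 the listed start sites lay a median of 334 bp (plus strand) and -295 bp (minus strand) upstream of the R64 start codons. The bulk trough of that chromosome was at -90 and -70 bp, within the range of the others. The highest promoter ratios outside chromosome 10 were 1.11 for the GTPase NOG2 (YNR053C) and 1.04 for UTP20 (YBL004W), a small subunit processome component. By role, the medians in bulk ran from 0.232 in the 3 large subunit GTPases to 0.506 in NOP7, ERB1 and YTM1 where chromosome 10 was left out, with 0.227 for the UtpB gene that then remained, and the Mpp10 complex stood at 0.356 (0.546 with MPP10 itself).

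From early (2 and 4 min) to late (8 and 15 min) nascent chromatin, no ribosome biogenesis gene passed the test for its promoter ratio. Each group had 4 libraries, 2 from each replicate, and genes were tested with limma on log2(value + 0.1) with Benjamini-Hochberg adjustment over all genes tested. Of 5663 genes 3 were called (0.053%) and of the 50 ribosome biogenesis genes 0, with 6 (12%) at an unadjusted p under 0.05, against 466 (8.23%) of all genes. The 6 include UTP10 of chromosome 10, whose values do not measure the promoter. The median change of the 50 genes was 0.02 on the log2 scale, against -0.02 for all genes tested. The largest differences were those of NSR1, ENP2 and SPB4, all upward. For NSR1 the ratio was 0 in replicate 1 at 2 and 4 min and in replicate 2 at 4 min and 0.0602 in replicate 2 at 2 min. In the late libraries it was 0.0989 and 0.0899 in replicate 1 and 0.0732 and 0.469 in replicate 2. The groups did not overlap for NSR1, but the difference of 1.14 (SE 0.37) had a limma adjusted p of 0.50. NAN1 (YPL126W, also known as Utp17 of UtpA) went from 0.230 ± 0.083 to 0.364 ± 0.067 (SD, n = 4 each), with a limma adjusted p of 0.60. HAS1 (YMR290C), a helicase, went from 0.322 ± 0.068 to 0.176 ± 0.049 (SD, n = 4 each), with a limma adjusted p of 0.51.

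Body signal was above that of other genes at 2 and 4 min, about equal at 6 min and below it at 8 and 15 min, in both replicates. In replicate 1 the median body level was 1.05 at 0 min, 1.16 at 2, 1.15 at 4, 1.03 at 6, 1.01 at 8 and 0.981 at 15 min. The medians of replicate 2 were 1.33 at 2, 1.31 at 4, 1.18 at 6, 1.14 at 8, 1.10 at 15 and 0.905 at 25 min. Relative to the median of other genes these were 1.14 and 1.12 times at 2 and 4 min of replicate 1 and 1.14 and 1.11 times in replicate 2. At 0 min, in 1 shallow library of replicate 1, the level was only 1.02 times that of other genes (1.05 against 1.02). At 15 min they were 0.945 times in replicate 1 and 0.923 times in replicate 2, and in bulk 0.919 times (1.07 against 1.16). Without chromosome 10 the median in bulk was 1.04, and those from 2 to 15 min lay between 0.988 and 1.35. The median of other genes was also higher in replicate 2, so the replicates are compared within themselves.

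**Figure D2:**
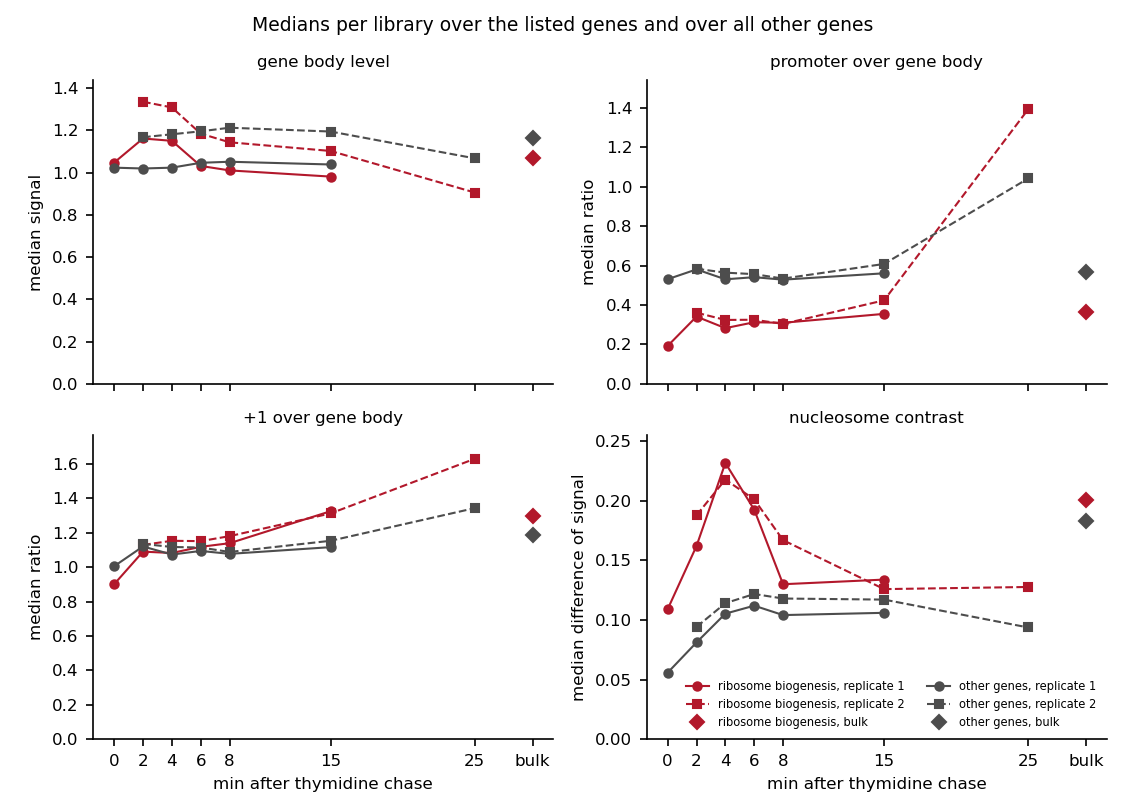
Medians over the 50 ribosome biogenesis genes (red) and over other genes (grey) in each library, against min after the thymidine chase, for replicate 1 (circles), replicate 2 (squares) and bulk (diamonds). In the replicates the red body level goes from 1.16 at 2 min to 0.981 at 15 min and from 1.33 to 1.10, and crosses the grey one near 6 min.

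Of the 50 genes 42 were lower late than early, with a median change of -0.20 (quartiles -0.30 and -0.02) on the log2 scale, against 0.01 for the 5678 genes tested, of which 48.5% were lower. Outside chromosome 10, 40 of 47 were lower, with a median of -0.20. Within replicate 1 alone the median change was -0.22 and within replicate 2 alone -0.17. As single genes few of these differences passed the test: limma called 95 of 5678 genes (1.67%), 85 of them upward, and 1 of the 50. At an unadjusted p under 0.05 were 13 of the 50 (26%) and 1018 of all genes (17.9%). With the replicate number as a block, since the aliquots of a time course share a culture, 252 genes were called and again 1 of the 50. All 4 late libraries lay below all 4 early ones in 10 of the 50 genes, where 3.79% of all genes did so, and all lay above in 1, NMD3, where 7.12% of all genes did so.

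The gene that fell was RRP12 (YPL012W), a factor needed for the export of both subunits. Its body level was 1.43 and 1.43 at 2 and 4 min of replicate 1 and 1.76 and 1.56 in replicate 2. At 8 and 15 min it was 1.14 and 0.796 in replicate 1 and 0.997 and 1.05 in replicate 2, so the groups did not overlap. The change was -0.59 (SE 0.14, limma adjusted p = 0.047, and 0.029 with the replicate block). It stood at 1.25 and 1.37 at 6 min, between the groups, and bulk stood at 1.14. The direction held without any single library, but the adjusted p then rose to between 0.070 and 0.12 without replicate 1 at 2 or 15 min or any 1 of the 4 libraries of replicate 2, and to 0.10 and 0.38 within replicates 2 and 1 alone, so the call was lost in each of these.

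The next largest differences did not pass the test. SSF1 (YHR066W, a Brix protein of the large subunit) was at 1.48 and 1.39 early and 0.913 and 0.998 late in replicate 1, and at 1.36 and 1.25 early and 1.11 and 0.959 late in replicate 2 (difference -0.43, SE 0.13, limma adjusted p = 0.097). YTM1 (YOR272W), the WD-repeat partner of Nop7 and Erb1, was at 1.21 and 1.46 early and 0.851 and 0.940 late in replicate 1. In replicate 2 it was at 1.35 and 1.48 early and 1.18 and 1.15 late (difference -0.39, SE 0.14, limma adjusted p = 0.15). In both genes the early and late libraries did not overlap. KRR1 (YCL059C, a KH-domain protein of the small subunit processome) had the highest nascent level, 2.71 ± 0.14 early and 2.15 ± 0.22 late (SD, n = 4 each), also without overlap. In the other direction, NMD3 (YHR170W), the export adaptor of the large subunit, was at 0.962 ± 0.081 early and 1.18 ± 0.07 late (SD, n = 4 each), with a limma adjusted p of 0.28. ENP2 (YGR145W, small subunit processome) and SPB1 (YCL054W, an rRNA methyltransferase of the large subunit) had differences of 0.21 and 0.15, with limma adjusted p of 0.49 and 0.67.

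In bulk the highest body levels were 1.51 in NAN1, 1.49 in UTP4 (YDR324C, UtpA) and 1.46 in KRR1, and the lowest 0.439 in RPF2, 0.691 in NOG2 and 0.696 in GAR1 (YHR089C, an H/ACA snoRNP protein). From early to late UTP4 went from 1.41 to 1.11 (limma adjusted p = 0.27) and NOP7 (YGR103W) from 1.53 to 1.25 (0.34). NUG1 (YER006W), a GTPase of the large subunit, went from 1.22 to 1.04 (0.57), while UTP7 (YER082C, small subunit processome) was at 1.14 and 1.12 (0.96) and GAR1 at 0.742 and 0.749 (0.98).

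**Figure D3:**
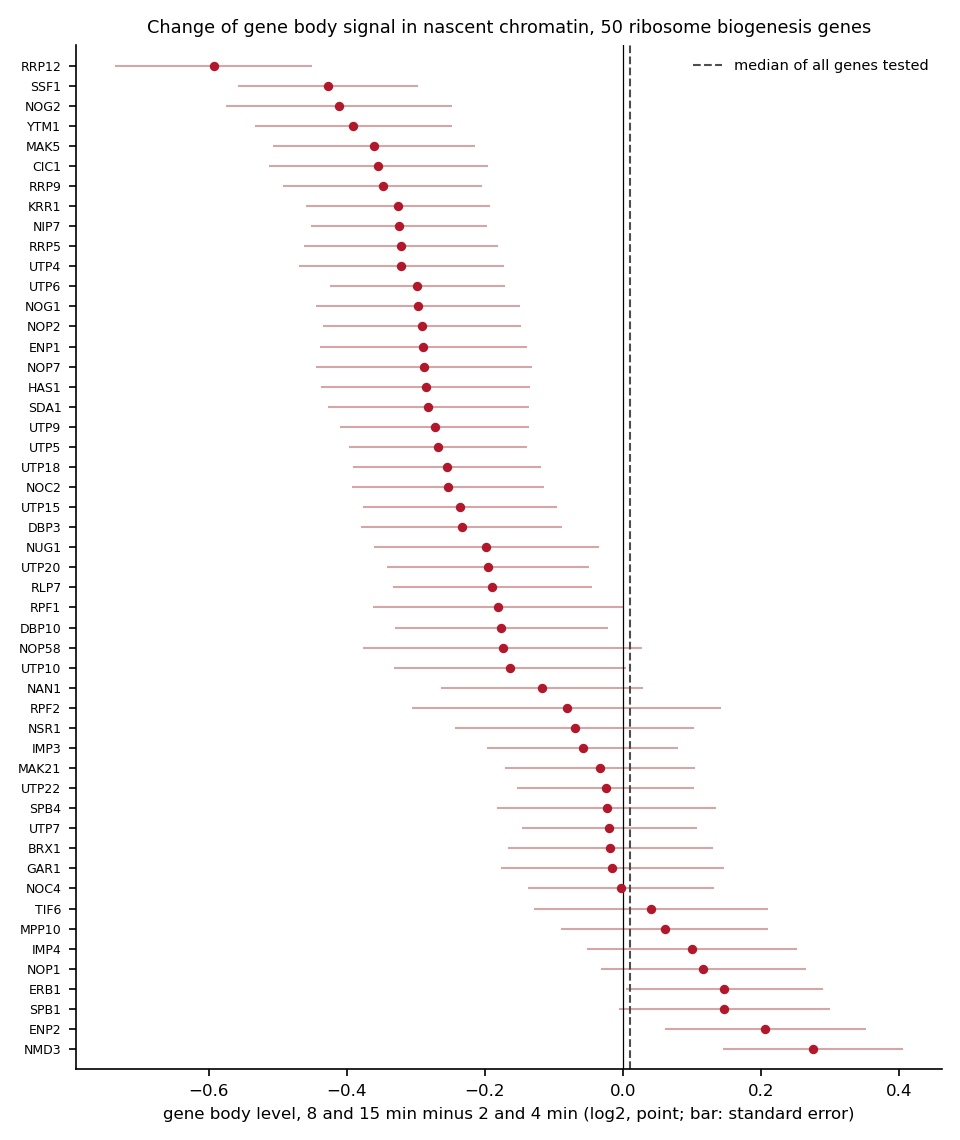
Change of the gene body level from 2 and 4 min to 8 and 15 min (log2, horizontal axis) for each of the 50 ribosome biogenesis genes, with the limma standard error as a bar, and the median of all genes tested as a dashed line. Of the 50 points 42 lie below 0, from RRP12 at -0.59 to NMD3 at 0.28.

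By role, all 6 UtpA genes, both UtpB genes, both UtpC and Rrp5 genes, all 5 DEAD-box helicases and all 3 large subunit GTPases were lower late, as were 7 of 8 other small subunit factors and 11 of 14 other large subunit factors. In the Mpp10 complex 1 of 3 was lower, with a median change of 0.06. The 78 other ribosome biogenesis genes (RNA polymerase I subunits and further assembly factors) had a median change of -0.12, with 52 lower and 1 called, and 15 at an unadjusted p under 0.05. The 118 ribosomal protein genes, which are transcribed even more strongly, had a median of -0.22, with 100 lower and 1 called by limma (38, or 32.2%, at an unadjusted p under 0.05). In 22 of these 118 all late libraries lay below all early ones, so the fall was not particular to the 50 genes. The 33 proteasome genes, a co-regulated set that serves as a contrast, had a median of 0.05, with 14 lower and 0 called by limma (8 at an unadjusted p under 0.05). The 140 genes with both PAC and RRPE outside both lists had a median of -0.11, with 93 lower.

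The difference was spread along the gene. In windows of 1 nucleosome each, the median change of the ribosome biogenesis genes was -0.15 over +1 (0 to 130 bp), -0.26 over +2, -0.05 over +3, -0.17 over +4, -0.23 over +5 and -0.18 over +6 (800 to 960 bp), while that of other genes was between -0.00 and 0.05 in each. The promoter signal (-150 to 0 bp, not divided by the body) had a median change of -0.19, with 31 of 50 genes lower, against -0.003 for other genes. The upstream flank (-500 to -200 bp) had a median change of -0.10, with 29 of 50 genes lower. The windows were chosen after the profiles were seen and carry no test.

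The body change moved with replication time and, more weakly, with transcription. The tables give replication time in 2 columns, a fitted one and 1 named rhagu. Across the 50 genes the Pearson correlation of the change with the fitted time was -0.36 (Spearman -0.47), and across 5628 other genes -0.29 (Spearman -0.37), where points share the same libraries and genes are not replicates. With the rhagu time it was -0.50 (Spearman -0.50), and across the other genes -0.39 (Spearman -0.38). The medians of the ribosome biogenesis genes and of other genes were 48.5 and 46.9 in the fitted time and 28.8 and 30.7 in the rhagu time, so the columns order them oppositely. Within each quartile range of other genes by the fitted time, from early to late, the ribosome biogenesis genes in that range had medians of -0.02 (13 genes), -0.18 (11), -0.29 (12) and -0.30 (14), and the other genes 0.18, 0.03, -0.04 and -0.08. The median was thus lower in each range. RNA polymerase II occupancy in the tables had a median of 0.416 in the ribosome biogenesis genes and -0.0204 in other genes, and 27 of the 50 lay in the top quartile range of other genes. That range had a median change of -0.05, against -0.20 for the 27. Among the 50 the correlation with occupancy was -0.06. The parts of replication time and of transcription in the change were not tested. All 50 genes were classed as TFIID-dominated in the tables, against 76.7% of other genes. So were 100% of the proteasome genes, 98.7% of the other ribosome biogenesis genes and 96.6% of the ribosomal protein genes.

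**Figure D4:**
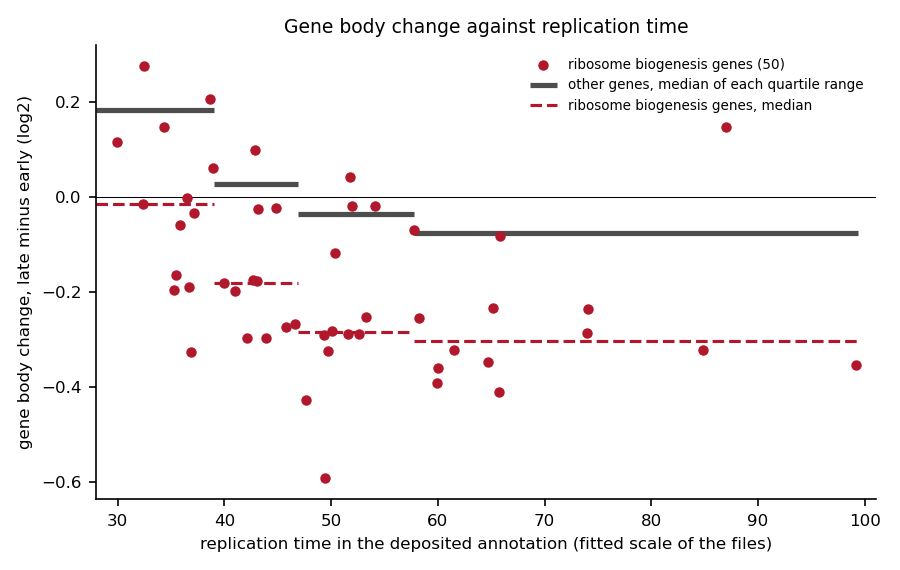
Gene body change from early to late (log2, vertical axis) against the fitted replication time of the deposited tables, on their scale (horizontal axis, shown from 28) for the 50 ribosome biogenesis genes (red points), with medians in each quartile range of other genes for the ribosome biogenesis genes (dashed) and the other genes (grey). The red medians, -0.02, -0.18, -0.29 and -0.30, lie below the grey ones, 0.18, 0.03, -0.04 and -0.08.

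The ratio of +1 (0 to 100 bp) to gene body had a median of 1.09, 1.08, 1.12, 1.14 and 1.32 from 2 to 15 min of replicate 1 and of 1.13, 1.15, 1.15, 1.18 and 1.31 in replicate 2, and was 1.30 in bulk. Other genes stayed between 1.07 and 1.15 and were at 1.19 in bulk. The +1 level itself, not divided by the body, had a median of 1.21 at both 2 and 15 min of replicate 1, and of 1.55 at 2 min and 1.37 at 15 min of replicate 2. Without chromosome 10 the ratio was 1.31 in bulk and 1.10 to 1.33 from 2 to 15 min. As single genes, 1 of 5659 was called by limma (0.0177%) and 0 of the 50, with 9 (18%) at an unadjusted p under 0.05, 5 of them upward, against 539 (9.53%) of all genes. The 5 upward genes include UTP10 and MPP10 of chromosome 10, whose values do not measure +1, so the count of 9 is not read as an excess. The median change over the 50 was 0.06, against -0.00 for all genes. NAN1 was at 0.902 and 0.735 early and 1.66 and 2.16 late in replicate 1, and at 0.824 and 0.906 early and 1.20 and 1.45 late in replicate 2 (difference 0.84, SE 0.18, limma adjusted p = 0.30). Its early and late libraries did not overlap. NOP1 (YDL014W, fibrillarin, the methyltransferase of C/D snoRNPs) went the other way, from 1.81 ± 0.28 to 1.18 ± 0.17 (SD, n = 4 each, limma adjusted p = 0.35). In bulk +1 was highest over the body in IMP3 (YHR148W, which pairs U3 snoRNA with the rRNA precursor), at 2.76, in UTP6 (YDR449C, UtpB), at 2.35, and in UTP15 (YMR093W, UtpA), at 2.18. It was lowest in NSR1, at 0.137, and RPF2, at 0.287.

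The nucleosomes of the ribosome biogenesis genes had a higher contrast in median than those of other genes, most so at 2 to 6 min. The nucleosome contrast was the signal at the peaks of +2 to +7 minus that at the troughs between them, divided by the mean of both. It had a median of 0.162, 0.232, 0.193, 0.130 and 0.134 from 2 to 15 min of replicate 1 and of 0.188, 0.218, 0.201, 0.167 and 0.126 in replicate 2. Other genes were between 0.0811 and 0.122 in these libraries. In bulk the medians were 0.201 and 0.183, and without chromosome 10 0.211 and 0.186. The other ribosome biogenesis genes (75 with a contrast) had medians of 0.123 to 0.196 from 2 to 15 min and 0.265 in bulk. The higher contrast was thus not particular to the 50 genes. From early to late 35 of the 50 were lower, with a median of -0.03, against 0.01 for all genes. By limma 0 of 4659 genes were called (0%; 369 at an unadjusted p under 0.05) and 0 of the 50 (5 at an unadjusted p under 0.05). Those of the 50 whose late libraries all lay below the early ones were NOP2 (YNL061W, an rRNA methyltransferase; 0.475 ± 0.095 to 0.245 ± 0.090), NOG1 (YPL093W, a GTPase; 0.308 ± 0.043 to 0.0939 ± 0.1225) and NOC2 (YOR206W; 0.0777 ± 0.0772 to -0.114 ± 0.040; SD, n = 4 each), each with a limma adjusted p of 0.50. In UTP9 (YHR196W, UtpA) all late libraries lay above the early ones, at -0.197 ± 0.085 early and -0.0470 ± 0.0272 late (SD, n = 4 each), with a limma adjusted p of 0.54. These genes without overlap in the contrast are not set against a share of all genes here, so they are not read as an excess.

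Bulk chromatin was compared with the 10 nascent libraries of 2 to 15 min gene by gene. A gene was counted where bulk lay outside the range of the 10 libraries and at least 1.5-fold from their mean. With 1 bulk library this has no test. For the promoter ratio 13 of the 50 (26%) were counted, where 15.9% of all genes were. With the libraries of 0 and 25 min added to the range, 4 of the 50 and 489 of 5636 genes were counted. On the reverse strand alone 7 of 49 were counted, which is not set against a share of all genes here. In the other sets 11 of 33 proteasome genes, 33 of 118 ribosomal protein genes and 29 of 140 other genes with PAC and RRPE were counted. Of the 13 ribosome biogenesis genes 9 were higher in bulk and 4 lower. SPB1 was at 1.01 in bulk and between 0.418 and 0.651 in the nascent libraries. IMP3 was at 0.546 against 0 to 0.463, and NMD3 at 0.725 against 0.170 to 0.505. Among those lower in bulk, SDA1 (YGR245C), a large subunit export factor, was at 0.0784 against 0.205 to 0.425, and ERB1 (YMR049C) at 0.0738 against 0.0966 to 0.435. The helicases DBP3 and HAS1 were at 0.0679 against 0.116 to 0.328 and at 0.109 against 0.126 to 0.377. The median difference over the 50, on the scale of log2(value + 0.1), was 0.01.

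**Figure D5:**
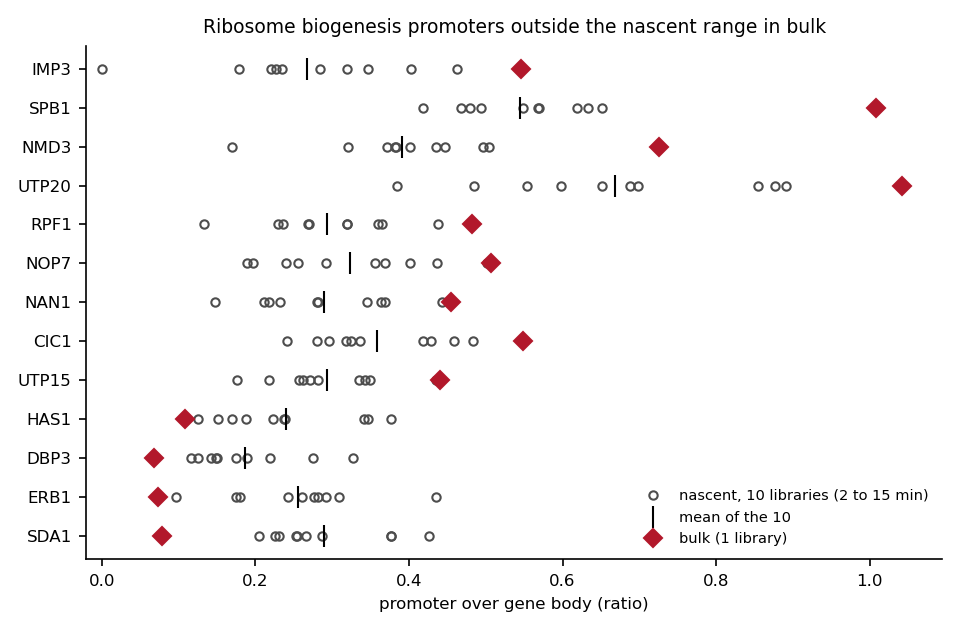
Promoter over gene body (ratio, horizontal axis) of the 13 ribosome biogenesis genes counted as different in bulk, with the 10 nascent libraries as open circles, their mean as a tick and bulk as a diamond. The diamond of SPB1 at 1.01 lies right of all its circles and that of SDA1 at 0.0784 left of them.

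For the body level 3 of the 50 (6%) were counted, where 7.2% of all genes were, all 3 lower in bulk. KRR1 was at 1.46 in bulk against 1.82 to 2.85 in the nascent libraries, SPB1 at 1.21 against 1.30 to 2.11, and NOC2 at 0.744 against 0.839 to 1.33. For +1 over body 2 (4%) were counted, IMP3 and RPF2, where 7.81% of all genes were. For the contrast, where only the range was used, 15 (30%) were counted, where 44.1% of all genes were. The highest of these in bulk was SDA1, at 0.720, against 0.308 to 0.708. BRX1 (YOL077C, a Brix protein of the large subunit) was at 0.537 against 0.121 to 0.268. The counts of 3 and 2 genes for body level and +1 were thus near the share of all genes, and that for the contrast was below it.

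The library at 25 min of replicate 2 stood apart, with promoters filled. The promoter ratio was higher than at 15 min in 47 of the 50 ribosome biogenesis genes (94%), against 81.2% of other genes, and 38 of the 50 (76%) were above 1 at 25 min, against 53.2% of other genes, 70.5% of the other ribosome biogenesis genes and 69.5% of ribosomal protein genes. At 15 min 2 of the 50 and 1139 of 5627 other genes were above 1. The median was 0.424 at 15 min and 1.39 at 25 min, and that of other genes 0.608 and 1.04. NSR1 went from 0.469 to 2.01 and NOG2 from 0.730 to 3.55. The mean profile at its lowest point was at 1.26 for the ribosome biogenesis genes, above the 1.07 of other genes, so that the order of the other libraries was turned. The same was seen in ribosomal protein genes (0.405 to 1.45). This time point has 1 library and was in no test.

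By the shape of the bulk profile from -500 to 1000 bp (75 bins), the genes most like the mean of the 50 were STE12 (YHR084W, Pearson r = 0.883), RBK1 (YCR036W, 0.849), KTR5 (YNL029C, 0.846), SCY1 (YGL083W, 0.843) and PBI1 (YPL272C, 0.840), out of 3509 genes with all bins. The 46 ribosome biogenesis genes with all bins had a median r of 0.574 with that mean, which contains them, and the other genes 0.358.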

How the data were processed

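The authors deposited, for each strand of each library, coverage relative to the library mean in 20 bp bins around the TSS of 6326 genes. Aligner and genome build are not given in the sources used here. The bins were recorded under the unit other, since 1.66% of cells hold the letter R or NaN, treated as missing. The 37956 rows of 6 names that belong to no sample were not used. Strands were averaged. Promoter, +1 and body are means over -150 to 0, 0 to 100 and 0 to 1000 bp. The contrast is the mean of the peak bins minus that of the trough bins, divided by the mean of both. These bins were set from the mean bulk profile, with at least 3 peaks and 2 troughs. Groups came from the sample titles.

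Late and early libraries were compared with limma 3.58.1 (R 4.3.3), pseudocount 0.1 (none for the contrast), for genes with body signal above 0 in all 8 libraries, and Benjamini-Hochberg adjustment over all genes. On simulated data of 5678 genes with 200 body levels changed by 2 (log2), 100% were recovered, with 11 false calls. For the same change in the promoter ratio and in +1 over body, 92.5% and 91.5% were recovered, with 3 and 13 false calls. For a change of 0.5 in the contrast 90% were recovered, with 7 false calls. The body changes of the ribosome biogenesis genes were smaller, with a median of -0.20 and a largest fall of -0.59 in RRP12. The simulation therefore does not show whether changes of that size could be found. Replicate numbers pair libraries because aliquots of a time course come from 1 culture. Deviations of same-numbered libraries correlated at -0.06 to 0.07. Since 2 cultures were used, p-values measure mostly the spread between these libraries.

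Genes named in the text were those past a threshold, the 3 highest and lowest in bulk, the 3 largest changes in each direction, the 3 that differed most from bulk and the first of each role group. YTM1 was added after its values were seen, and sequences were shown for genes with both motifs. The members and lists were chosen with earlier results of these data known. Motifs were searched in R64, and Python 3.11.15 was used. Alternatives were other pseudocounts, filters, scalings, windows, strands, time points, the replicate block and omission of libraries. Leaving out chromosome 10 was added after the data were seen.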

Additional observations from a re-analysis of the deposited data

Results flagged for a closer look

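The median promoter over body ratio of the ribosome biogenesis genes at 25 min of replicate 2, 1.39, was singled out because this library is in no comparison and its value lies above that of bulk (0.367). Other genes were at 1.04 in that library and 0.569 in bulk. Without the 3 genes of chromosome 10 the median at 25 min was 1.41. A far-lying library was looked for among the 4 early, the 4 late and the 10 nascent libraries in 14 sets of values, and 0 were found, where chance gives about 1 in 20.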

How the results depend on the processing

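The direction of the body change was the same in every alternative run: the median over the ribosome biogenesis genes was -0.24 for 2 against 15 min, -0.25 with bins at 0 missing and -0.11 with a pseudocount of 1, and -0.26 to -0.16 when a replicate or a library was left out, against -0.20. The number of genes called for the body level was less stable than that median: 252 with the replicate block, 202 for 2 against 15 min, 172 for a linear trend, 214 with a pseudocount of 1, 229 with quantile normalization, 41 with a pseudocount of 0.01, 20 with bins at 0 missing, 13 and 16 on the forward and reverse strand, and 0 with no filter (limma, 987 at an unadjusted p under 0.05), against 95. It was 2 to 114 when a replicate or library was left out, with 19 and 28 without replicate 1 at 2 and 15 min and 58, 33 and 23 without replicate 2 at 2, 8 and 15 min. The ribosome biogenesis genes called were 2 with quantile normalization, 0 with a pseudocount of 0.01, bins at 0 missing, either strand or no filter, and 0 to 1 when a replicate or library was left out. The replicate block changed no other call.

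For the promoter ratio the genes called were 0 for 2 against 15 min and for the trend, 1 with bins at 0 missing, on the forward strand and with a pseudocount of 1, 12 with quantile normalization and 0 to 4 with a replicate or library left out, against 3. The median change was 0.17 in the window from -200 to -50 bp and -0.0657 to 0.12 with a replicate or library left out (0.0568 without replicate 1). For +1 the genes called were 0 for 2 against 15 min, with bins at 0 missing and for the trend, 2 on the forward strand and with a pseudocount of 0.01, 5 on the reverse strand and 0 to 3 with a replicate or library left out, against 1. The median change was 0.24 on the forward strand, 0.15 for the highest bin and 0.01 to 0.14 with a replicate or library left out. For the contrast 1 gene was called on the forward strand and for the trend, and 0 to 4 with a replicate or library left out. The median change was -0.0170 for 2 against 15 min, -0.0225 with bins at 0 missing, -0.0497 and -0.0255 on the forward and reverse strand, -0.0294 with gene bodies above 0.3, -0.0397 with quantile normalization, -0.0342 without chromosome 10 and -0.0438 to -0.0161 with a library left out. In detail it was -0.0389, -0.0303 and -0.0409 without replicate 1 at 2, 4 and 8 min, -0.0183 and -0.0429 without replicate 2 at 2 and 4 min, and -0.0283 and -0.0271 without replicates 1 and 2.

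Against bulk, adding 0 and 25 min gave 489 genes and 4 ribosome biogenesis genes for the promoter ratio, with a median of -0.22. The median was -0.31 with bins at 0 missing, and 7 were counted on the reverse strand. With no minimum fold, +1 gave 1008 genes and 12 of the 50, and the body level 1463 and 9. On the forward strand +1 gave 6 of the 50 and the body level 1, and on the reverse strand the body level gave 677 genes and the contrast a median of 0.0470. Counts of the ribosome biogenesis genes on a single strand are not set against a share of all genes here. With 1 replicate alone the promoter ratio gave 1322 to 1387 genes and 14 to 18 of the 50, with a median of -0.08 to 0.10. In the same way +1 gave 698 to 761 genes, 5 of the 50 and a median of 0.14 to 0.24, the body level 495 to 812 genes, 2 to 4 and -0.19 to 0.01, and the contrast 2678 to 2889 genes, 17 to 29 and 0.0226 to 0.0376. Fewer libraries give a narrower range, which raises these counts; for the other changes the cause was not tested. Depth limits the values of replicate 1 at 0 and 4 min.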
